A study of Mus musculus with 16 samples.

Results

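The cytosines of 28S rRNA, the longest RNA of the ribosome, were followed in mouse embryonic stem cells by RNA bisulfite sequencing. All entries that the deposited files assign to the 28S reference in the libraries of long RNA without rRNA depletion were taken. They comprise 1457 of the 2484 cytosines listed in these libraries, and the others belong to 18S rRNA (492), 5.8S rRNA (43) and 2 further transcripts (188 and 304). The cells carried the J1 background and were either wild type or Dnmt2-/-, with 2 libraries of each genotype. Dnmt2, gene symbol Trdmt1, is a tRNA cytosine methyltransferase. Both groups were grown with mouse embryonic fibroblast feeders, which were then depleted by letting them settle on dishes, and no treatment separates the groups. The labels do not say whether the 2 libraries of a genotype come from separate cultures or clones, and each p-value below refers only to how far these libraries vary, which may be technical.

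The large ribosomal subunit carries the centre that joins amino acids, and 28S rRNA forms its core. Mammalian 28S rRNA is known to hold a pair of 5-methylcytosines. One is written by Nsun5, the counterpart of yeast Rcm1, and the other, close to the peptidyl transferase centre, by Nop2 (also called Nsun1). Mammalian 28S rRNA also contains expansion segments, long GC-rich insertions that fold into stable helices. Bisulfite turns unmethylated cytosine into uracil and spares 5-methylcytosine, and it reacts with unpaired bases. Non-conversion, the percentage of reads over a cytosine that still show it as cytosine, is therefore read as a methylation level only where it stands above what incomplete conversion leaves.

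Depth over 28S rRNA was similar in the 4 libraries. They listed 1453 to 1457 of its cytosines between positions 1 and 4726, counted along the reference, with a median coverage of 4312 to 4691 reads per cytosine and a summed coverage of 10283614 to 11274257. Positions 648, 651, 4722 and 4726 were not listed in every library. The 28S entries made up 28.07% and 28.23% of the summed coverage of wild type replicates 1 and 2, 27.98% of that of knockout replicate 1 and 29.86% of that of knockout replicate 2, the highest share of the 4. The files of this fraction hold no mRNA, so the deleted gene cannot be seen in the same libraries, and cell type markers are likewise out of reach. In the separate mRNA libraries of these cells, from position 200 of the Trdmt1 transcript onward, 95, 127 and 48 cytosines were listed in the wild-type replicates and 0 in each of the 3 knockout replicates. Before position 200, 32, 32 and 15 were listed in the wild-type and 32, 16 and 32 in the knockout replicates. The absence in the knockout thus concerns positions from 200 onward only.

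Across 28S rRNA, 2 cytosines were almost fully non-converted in every library, and no others came near them. At position 3438, non-conversion was 95.9% and 96.9% in wild type replicates 1 and 2 and 96.6% and 97.5% in knockout replicates 1 and 2. The wild-type and knockout values interleave. The Wilson 95% intervals of the 4 libraries ran from 94.8% to 96.7%, 95.9% to 97.7%, 95.4% to 97.4% and 96.5% to 98.2% at 1333 to 1656 reads. These intervals cover counting error only, since without molecular identifiers several reads can stem from 1 molecule. At position 4099 the levels were 95.7% and 95.7% in the wild-type and 96.0% and 95.7% in the knockout libraries, at 2116 to 2690 reads, so 3 of the 4 libraries were alike to within the precision printed. Mammalian Nsun5 and Nop2 are the known writers of the pair of 28S methylcytosines, and neither enzyme was measured or perturbed here.

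Both sites stood alone. Within 40 nt of position 3438, 15 other cytosines were listed, and their non-conversion was 0.429% to 4.40% over all libraries, with a median of 1.19%. The direct neighbour, position 3437, stood at 2.05%, 1.51%, 1.93% and 1.81% in wild type replicates 1 and 2 and knockout replicates 1 and 2. The highest neighbour was position 3464. Around position 4099, 21 other cytosines lay between 0.429% and 1.88%, with a median of 1.11%. The 4 libraries thus show 1 sharply bounded cytosine at each place, with the next bases at the level of the rest of the molecule.

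**Figure D1:**
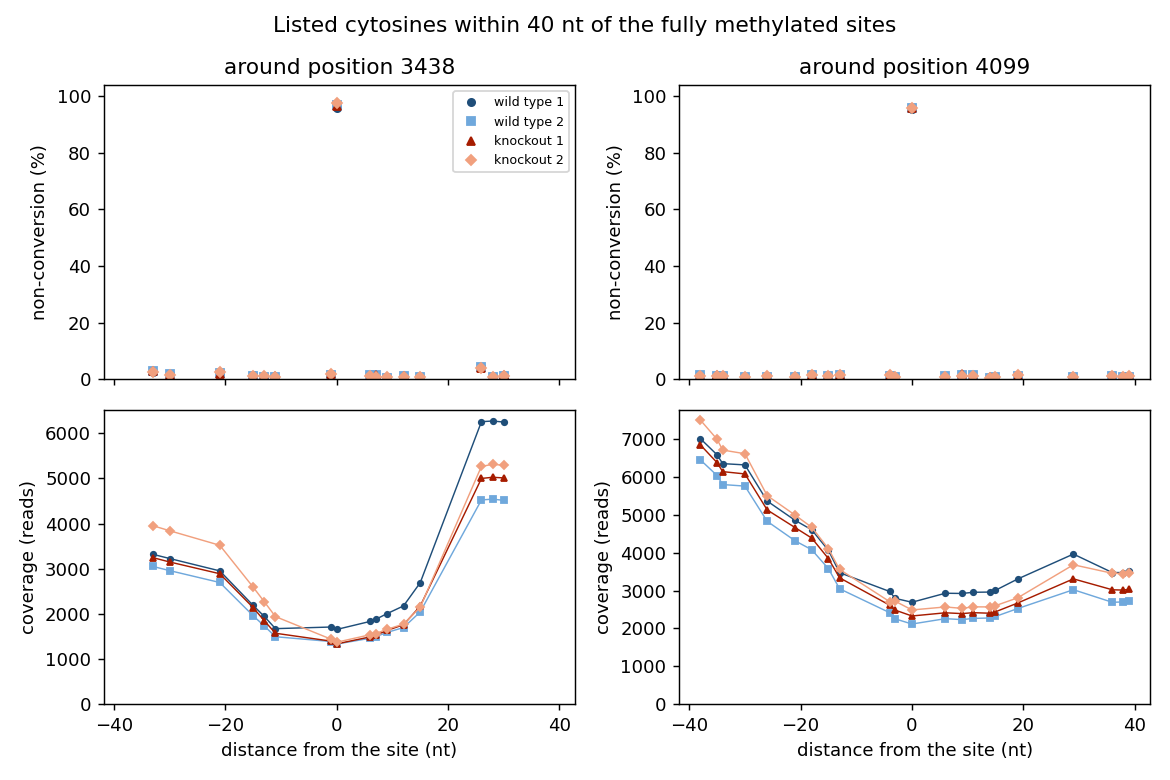
Non-conversion (top, %) and coverage (bottom, reads) of each listed cytosine within 40 nt of positions 3438 and 4099, against the distance from the site in nt; each symbol is 1 library. Only the central cytosine stands above 5% at either place, and coverage is lowest at that cytosine.

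Both cytosines lay at a local minimum of coverage. Mean coverage over the 4 libraries was the lowest of all listed cytosines within 40 nt at both positions 3438 and 4099. Only 43 of the 1457 cytosines, 2.95%, are the lowest of their own neighbourhood in this sense. At position 3438 coverage was 1656, 1333, 1337 and 1373 reads, against 3319, 3051, 3246 and 3953 at position 3405 and 6257, 4524, 5000 and 5268 at position 3464 (wild type replicates 1 and 2, then knockout replicates 1 and 2). At position 4099 coverage was 2690, 2116, 2328 and 2487 reads in the same order. It was 7005, 6446, 6841 and 7496 reads at position 4061, and 3520, 2721, 3034 and 3463 at position 4138. The rise around position 4099 was thus smaller on the 3′ side. The minimum was noticed in these data, and with 2 sites it was not tested.

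The levels of the remaining cytosines formed a continuous low range. Of 1386 cytosines with 100 reads or more in every library, 228 had a mean non-conversion under 1%, 768 lay from 1% to 2%, 313 from 2% to 5%, 66 from 5% to 10% and 9 from 10% to 20%. None of these 1386 lay between 20% and 90%. The pattern along the molecule was shared by all libraries. Leaving out the 2 fully methylated sites, the wild-type and knockout means of 1384 cytosines had a Pearson correlation of 0.969, and single libraries correlated at 0.939 to 0.948. Cytosines share fragments with their neighbours and base composition with themselves in every library, so these values only describe how alike the profiles are.

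**Figure D2:**
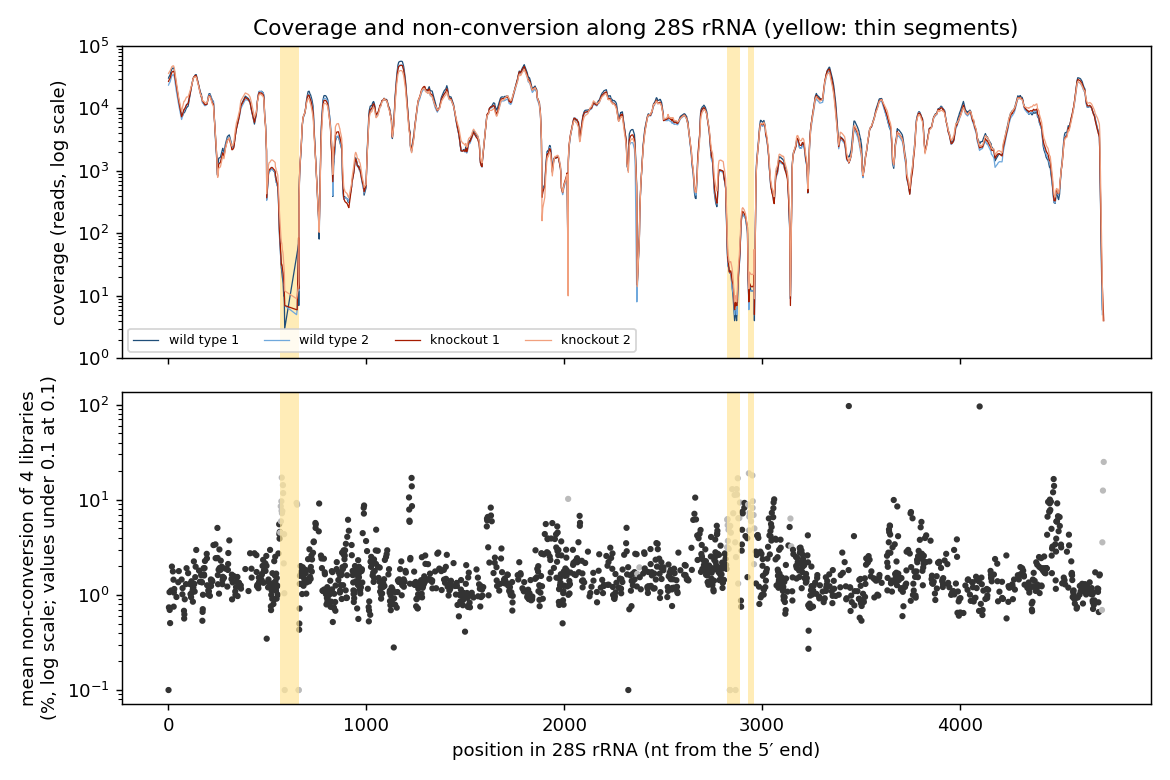
Coverage of each library (top, reads, log scale) and mean non-conversion over the 4 libraries (bottom, %, log scale) along 28S rRNA. The points at the top of the lower panel are positions 3438 and 4099, grey points have a mean coverage under 100 reads, and yellow bands mark the 3 thin segments.

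A cytosine was called methylated in a genotype when exact binomial tests against the background of each library, combined and adjusted by Benjamini-Hochberg, passed at 0.05 and both libraries showed 10% or more at 10 reads or more. This rule called 15 of the 1435 28S cytosines tested in wild type, where 0.772% of the 2461 cytosines of all references were called. It called 11 of 1443 in Dnmt2-/- cells, where 0.689% of 2469 were called, and 8 cytosines met it in both genotypes. The knockout count is near the share over all references, and 28S rRNA was not tested against the others. Of 18 cytosines called in either genotype, 2 are the fully methylated sites, 9 lie in the partly non-converted stretches described next, 6 lie in thin segments with under 100 reads, and the last is position 3665 (10.6%, 10.4%, 7.80% and 11.1%). A cytosine called in 1 genotype only is not thereby shown to differ. The background was 1.38% to 1.55% per library, from cytosines of all references at 10% or less. Without that limit, 28S cytosines with a mean coverage under 100 reads pooled at 4.97% to 5.91%. A call thus means a level above the background. Whether the called sites other than the 2 fully methylated ones reflect methylation or incomplete conversion was not tested. Calls rest on the 10% minimum: with 1 library left in the genotype the counts were 26 without wild type replicate 1, 20 without knockout replicate 1 and 17 without knockout replicate 2.

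Partly non-converted cytosines lay together. Stretches were defined as 3 or more cytosines with a mean non-conversion of 5% or more over the 4 libraries and 100 reads or more in each, at most 10 nt apart. This gave 13 stretches with 59 cytosines, and 16 further cytosines at that level stood outside them. Because the level chose the stretches, their height is a description and was not tested. Just inside the limit, position 744 had a mean of 5.06%, and just outside it position 4462 had 4.95%. Defined in wild type alone and in the knockout alone, 59 and 59 cytosines lay in stretches, of which 54 were shared, 91.5% of each list.

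The most non-converted stretch lay near the 3′ end, at positions 4470 to 4475. Its 3 cytosines averaged 13.9% and 15.7% in the wild-type and 13.0% and 14.0% in the knockout libraries, and its highest, position 4473, stood at 15.1%, 19.9%, 14.3% and 16.9%. Position 4475 stood at 15.5%, 14.1%, 14.1% and 12.3%. Further stretches lay on both sides of it, at positions 4442 to 4459 (8 cytosines; 9.09%, 8.38%, 7.79% and 8.65%) and 4487 to 4504 (7 cytosines; 7.39%, 6.19%, 5.94% and 6.53%). Levels were thus lower on both sides of the central stretch, and the genotypes overlap in all 3.

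The second highest stretch, at positions 1216 to 1231, was the best covered of those above 8%, with 2067 to 4677 reads per cytosine. Its 7 cytosines averaged 9.90% and 9.52% in the wild-type and 9.53% and 10.9% in the knockout libraries. Position 1229 stood at 17.0%, 16.2%, 16% and 18.7%, and its neighbour 1230 at 13.8%, 13.9%, 13.5% and 14.3%. Position 1216 stood at 10.3%, 10.0%, 9.95% and 12%. The ranges of positions 1229 and 1230 over the 4 libraries do not overlap.

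The other stretches above 7% were at positions 2900 to 2911 (8.09%, 7.81%, 8.03% and 8.26%), 987 to 989 (8.55%, 9.33%, 7.33% and 6.92%), 2652 to 2666 (7.27%, 8.01%, 7.66% and 7.09%), 3045 to 3061 (7.61%, 7.70%, 7.38% and 7.18%), 1629 to 1634 (7.28%, 6.91%, 6.63% and 7.26%) and 3750 to 3760 (7.77%, 6.22%, 7.42% and 6.61%). Their highest members were position 2911 at a mean of 9.27%, 989 at 8.71%, 2662 at 10.5%, 3061 at 10.1%, 1629 at 8.28% and 3752 at 7.44%. Over the 13 stretches the knockout mean was lower in 10 and higher in 3, and in 4 of the 10 both knockout libraries lay below both wild-type libraries. Among single cytosines of all references in the edgeR comparison of genotypes, 37.0% did not overlap between genotypes in either direction, so the 4 are not read as a difference.

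**Figure D3:**
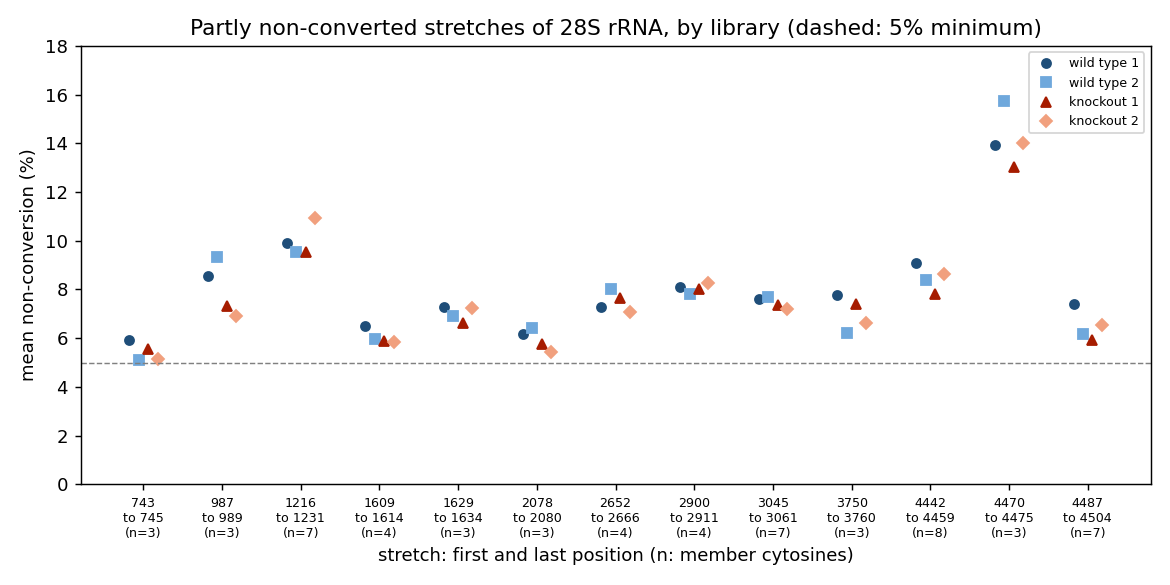
Mean non-conversion (%) over the member cytosines of each of the 13 stretches in the 4 libraries, in order of position in 28S rRNA; the dashed line is the 5% minimum that defined them. The stretch at 4470 to 4475 is the highest in all 4 libraries.

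Members of stretches were less covered than other cytosines. Their median coverage was 969 reads, against 5640 for the 1325 other cytosines at 100 reads or more. The number of listed cytosines within 25 nt had a median of 18 in stretches and 17 elsewhere. Of the members, 69.5% had a listed cytosine directly beside them, against 58.8% elsewhere. Members must lie at most 10 nt apart, so the rule itself favours close neighbours, and these figures are a description. Stretches also occurred at good depth, as at positions 1629 to 1634 with 10124 to 10265 reads.

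Non-conversion was higher where coverage was low. Pooled over the 65 cytosines with a mean coverage under 100 reads it was 4.97% and 5.89% in the wild-type and 5.91% and 5.88% in the knockout libraries. It was 2.91%, 2.85%, 2.83% and 2.83% in the 168 cytosines with 300 reads or more and under 1000. It was 1.5%, 1.43%, 1.38% and 1.40% in the 384 cytosines with 10000 reads or more. The order of the classes was the same in each library. Across the 1384 cytosines at 100 reads or more, Spearman's correlation of mean non-conversion with mean coverage was -0.25, a description of sites that share fragments. Whether low coverage and partial non-conversion have a common source was not tested.

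**Figure D4:**
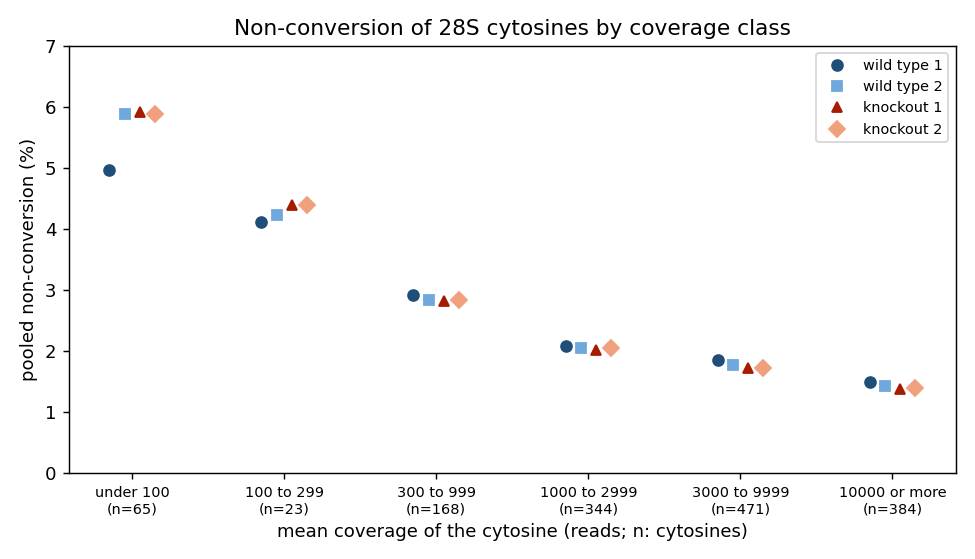
Pooled non-conversion (%) of 28S cytosines, without the 2 fully methylated sites, by class of mean coverage (reads); each symbol is 1 library and n is the number of cytosines. Each library falls from 4.97% to 5.91% in the thinnest class to 1.38% to 1.5% in the deepest.

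Coverage itself was uneven, and 3 thin segments stood out. A thin segment was a run of 5 or more consecutive listed cytosines with a mean coverage under 100 reads, and 56 of the 65 cytosines under that limit lay in such segments. The segment from position 565 to 659 held 18 listed cytosines with a mean coverage of 21.8 and 26.9 reads in the wild-type and 28.4 and 49.9 in the knockout libraries. No cytosine was listed between positions 588 and 648, a gap of 60 nt. At position 648, wild type replicate 1 had no entry and the other libraries had 5, 6 and 9 reads.

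The segment from 2823 to 2888 held 26 cytosines at 23.1, 24.3, 27.3 and 37.2 reads, and the one from 2929 to 2961 held 12 cytosines at 14.1, 13.8, 15.8 and 23.6 reads. In all 3 segments knockout replicate 2 was the deepest. Pooled non-conversion there was 5.09%, 9.07%, 6.26% and 6.34% from 565 to 659, 5.32%, 4.91%, 5.49% and 5.27% from 2823 to 2888, and 7.10%, 6.06%, 8.42% and 8.48% from 2929 to 2961. Single cytosines in these segments reached higher levels on few reads. Position 2951 stood at 16.7%, 25%, 21.4% and 9.09% of 12, 12, 14 and 22 reads, position 2877 at 18.2%, 16.7%, 21.4% and 11.1% of 11, 12, 14 and 18 reads, and position 573 at 4%, 27.6%, 22.6% and 14.3% of 25, 29, 31 and 70 reads. The 3 sites vary between libraries of the same genotype by as much as between genotypes.

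The remaining 9 cytosines under 100 reads were positions 2020, 2369, 2380, 3143 and 3147 and, at the 3′ end, 4717, 4719, 4722 and 4726. Coverage was highest at position 1179 in wild type replicate 1 and knockout replicate 1, with 56832 and 48949 reads, at 1177 in wild type replicate 2 (49700 reads) and at 26 in knockout replicate 2 (48104 reads). By segments of 500 nt the median coverage of a cytosine ranged from 1097 reads (positions 2501 to 3000) to 12488 reads (positions 1 to 500), and it was 1180 reads in positions 501 to 1000. The thin segments thus lie within the 2 least covered parts of the molecule.

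Whether neighbouring cytosines convert less completely was examined with listed positions alone. Among cytosines at 100 reads or more, the 820 with a directly adjacent listed cytosine had a pooled non-conversion of 1.64%, 1.56%, 1.53% and 1.55%, and the 564 isolated ones 1.64%, 1.58%, 1.52% and 1.55%. The mean difference was -0.00252 percentage points (exact sign-flip permutation test over 4 libraries, two-sided p = 0.875, where 0.13 is the smallest possible). The difference had either sign, and it became 0.00224 without wild type replicate 2. With cytosines above 10% left out it was -0.0178, lower for adjacent cytosines in each of the 4 libraries, at the smallest p that the test allows. By run length, cytosines in runs of 2 and 3 lay slightly below the isolated ones in each of the 4 libraries. Runs of 4 were higher in each, at 1.74%, 1.65%, 1.63% and 1.72% over 114 cytosines. Runs of 5 stood at 2.14%, 2.02%, 1.94% and 1.97% over 35, and runs of 6 at 2.32%, 2.07%, 2.22% and 2.27% over 30. The 7 cytosines in runs of 7 stood at 1.14%, 1.07%, 1.08% and 1.17%. Run length was not tested. Pooled values weight each cytosine by its reads. Medians over cytosines were 1.44% for isolated ones and 1.46%, 1.40%, 1.73%, 1.59%, 2.18% and 1.14% in runs of 2 to 7. By this measure runs of 2 lay above isolated cytosines and runs of 5 below runs of 4. Spearman's correlation with the number of listed cytosines within 25 nt was 0.14 for mean non-conversion and -0.44 for mean coverage, as a description.

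To ask whether the loss of Dnmt2 goes with a change at any 28S cytosine, wild-type and Dnmt2-/- libraries were compared with the edgeR quasi-likelihood test over all references, at cytosines with 10 reads or more in each library and a mean of 5% or more. Of the 105 28S cytosines tested, 1 passed after Benjamini-Hochberg adjustment over 162 cytosines, where 0.617% passed. Position 2078 stood at 8.06% and 7.63% in the wild-type and 6.16% and 5.25% in the knockout libraries, at 2931 to 3504 reads. It fell by 2.14 percentage points, from 7.85% ± 0.3 (SD, n = 2) to 5.71% ± 0.644 (log2 odds ratio -0.48, SE 0.128; edgeR adjusted p = 0.0316). The call did not hold when 1 library was left out and the lone library of that genotype was taken to vary like the other pair: the edgeR adjusted p was 0.706 without wild type replicate 1, 0.281 without wild type replicate 2, 0.666 without knockout replicate 1 and 0.624 without knockout replicate 2. It was 0.0657 with the replicate number as a block and 0.33 in DESeq2.

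**Figure D5:**
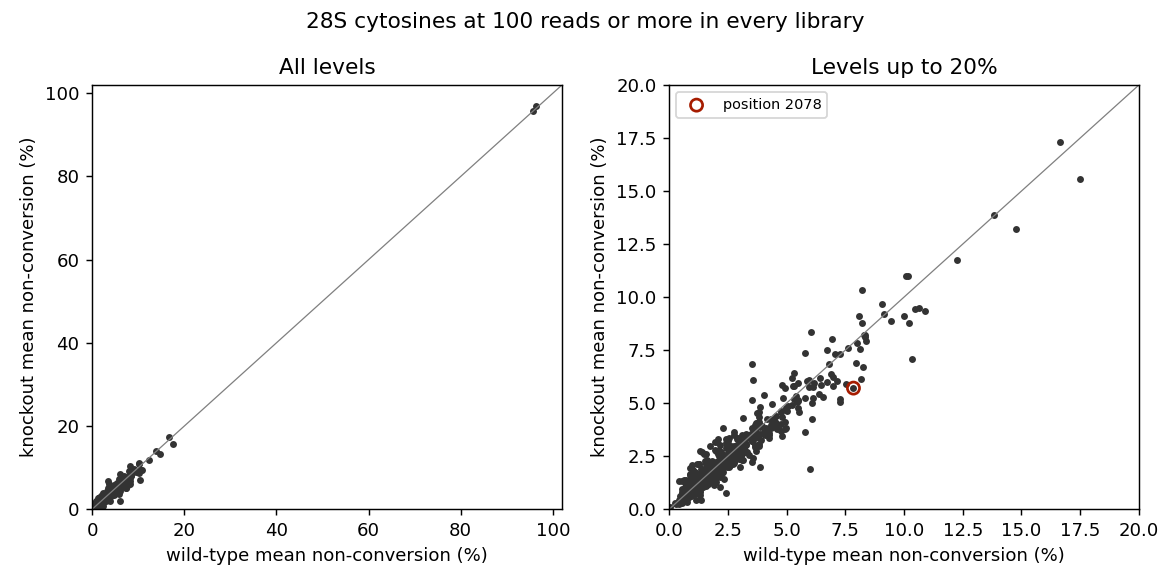
Mean non-conversion (%) in the knockout against wild type for 28S cytosines with 100 reads or more in every library, over all levels (left) and up to 20% (right); the grey line marks equal values and the red circle position 2078. Positions 3438 and 4099 lie near the line at the upper right.

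The fully methylated cytosines did not pass that test. The wild-type mean at position 3438 was 96.4% ± 0.729 (SD, n = 2) and the knockout mean 97.0% ± 0.63, a difference of 0.596 percentage points (log2 odds ratio 0.29, 95% interval -0.15 to 0.73; edgeR adjusted p = 0.693). At position 4099 the means were 95.7% ± 0.0346 and 95.8% ± 0.187, a difference of 0.155 points (log2 odds ratio 0.05, 95% interval -0.27 to 0.38; edgeR adjusted p = 0.928). These intervals bound the difference and do not show that the levels are equal.

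Among the 105 tested cytosines, 68 were lower and 37 higher in the knockout. The median difference was -0.364 percentage points, against -0.362 over all 162 cytosines tested, and that of the 28S cytosines was -0.124 without wild type replicate 1. In 35 the libraries of the genotypes did not overlap, 23 of them lower in the knockout; over all references 37.0% of tested cytosines did not overlap. The 28S share, 33.3%, is near that figure. The largest non-overlapping differences rested on few reads: position 2849 (30.8% and 7.69% in wild type, 5.88% and 7.41% in the knockout, 13 to 27 reads), 2929 (0% and 8.70%, then 13.0% and 13.9%, 19 to 36 reads), 569 (8.82% and 11.4%, then 0% and 3.49%, 34 to 86 reads), 572 (11.1% and 12.1%, then 3.13% and 4.29%) and 2885 (0% and 6.25%, then 8.57% and 10.9%). None of the 5 passed (edgeR adjusted p = 0.662 to 0.693), and the difference at position 2849 was -12.6 points with all libraries and -1.05 without wild type replicate 1. At better depth position 989 stood at 9.78% and 10.9% in the wild-type and 6.49% and 7.69% in the knockout libraries, at 409 to 546 reads (edgeR adjusted p = 0.597).

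The level left over most of the molecule was compared as a background, pooled over cytosines at 10 reads or more and 10% or less. It was 1.63% and 1.56% in the wild-type and 1.52% and 1.54% in the knockout libraries. The means were 1.59% ± 0.0497 (SD, n = 2) and 1.53% ± 0.011. They differed by -0.0649 percentage points, at a two-sided p of 0.33 by exact permutation, which is the lowest that 2 libraries against 2 can reach. Without wild type replicate 1 the difference was -0.0298 and without wild type replicate 2 it was -0.100. The median over these cytosines was 1.54% and 1.44%, then 1.44% and 1.48%, so the genotypes overlap in that measure. Segments of 500 nt were pooled over all their cytosines except the 2 fully methylated sites, without the limits of 10 reads and 10%. In this measure wild type replicate 1 was the highest in 9 of 10 segments. Both knockout libraries lay below both wild-type libraries in 7 and above both in 0. No such share is given for segments of the other references. The 18S background also had a lower mean in the knockout, at 1.29% against 1.35% in wild type, with overlapping libraries. Whether the 7 are particular to this RNA was not tested. The segments of a library share its overall level, so the 7 are not read as separate differences. The segment values ranged from 1.12% to 2.09%, a wider range than that between libraries within a segment.

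Within each library the background of 28S rRNA was higher than that of 18S rRNA, the small-subunit RNA measured in the same libraries. The 18S background was 1.40% and 1.30% in the wild-type and 1.27% and 1.32% in the knockout libraries. The difference was 0.224, 0.253, 0.250 and 0.219 percentage points, higher in 4 of 4 libraries (mean 0.237; exact sign-flip permutation over libraries, two-sided p = 0.13, the lowest it can give). At 100 reads or more the mean difference was 0.236.

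Coverage along 28S rRNA was compared between genotypes in 48 windows of 100 nt, scaled to the mean of each library. In limma, 0 windows passed after Benjamini-Hochberg adjustment over 95 windows of all references, where 0.00% passed, and 1 had an unadjusted p under 0.05. The largest difference was in the window at the 3′ end from position 4701, with a mean coverage of 1401 and 1330 reads in the wild-type and 1317 and 2270 in the knockout libraries (log2 difference 0.39, SE 0.324; limma adjusted p = 0.986). The next were windows from position 501 (555 and 559, then 599 and 815 reads; log2 difference 0.38), 4401 (1519 and 1635, then 1788 and 2179; 0.37), 2801 (204 and 202, then 213 and 296; 0.36) and 1 (24185 and 19801, then 22299 and 28040; 0.24). In each of the 5 knockout replicate 2 was the highest library, and it was the highest in 31 of the 48 windows. Without knockout replicate 1, which leaves knockout replicate 2 alone and takes it to vary like the wild-type pair, 8 of the 48 windows passed, where 14 of the 95 windows of all references (14.7%) did. With the replicate block 1 passed, where 2 of 95 (2.11%) did. Fewer molecules and poorer recovery of a segment cannot be told apart in coverage.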

How the data were processed

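Fragmented long RNA without rRNA depletion was converted with bisulfite and read from both ends, per the labels' protocols. BSMAP and mm9 are the tool and build named, per the submitters' processing notes, with no version or filter. Per the file headers, each deposited file gives for a cytosine the coverage, a count of reads, and the unconversion ratio, a fraction of these reads. The product of both was whole in all 9929 entries (largest distance 4.7e-08, tolerance 0.01) and gave the non-converted counts. The lowest coverage listed was 3, and an unlisted cytosine was taken as 0 reads. Genotypes were compared with edgeR 4.0.16 (R 4.3.3) on both kinds of count at each cytosine, with library terms, conversion state and its interaction with genotype. For coverage windows, limma 3.58.1 with a variance trend took log2 values of mean coverage plus 0.5 reads, divided by the library mean. DESeq2 1.42.0 was an alternative. Calls combined 1-sided binomial tests by Fisher's method (scipy 1.17.1), against each library's pooled non-conversion over cytosines at 10% or less. Scripts were tested on simulated data.

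Sites were named by rule: levels of 90% or more in every library, the 12 highest other called sites, those passing the genotype test, the 5 largest non-overlapping differences, the highest member of a stretch, the thin segments, and the 5 windows that differed most. The sites, rules and tests were chosen with earlier results of these data known. Replicates were not duplicates: 0.41% and 0% of 28S cytosines had identical counts in the wild-type and knockout pairs. Small RNA libraries were not used here.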

Additional observations from a re-analysis of the deposited data

How the results depend on the processing

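The number of 28S cytosines called methylated followed the minimum level. At 5% or more it was 84 in wild type and 75 in the knockout, and at 20% or more 2 and 2, against 15 and 11. Leaving out 1 library gave 17 to 26 in wild type and 17 to 20 in the knockout. Minimum coverages of 100 and 300 (the latter chosen after seeing the data) and other backgrounds moved these counts by less than 1.5 times. The genotype count of 1 became 0 at a mean of 1% or more, with DESeq2, with the replicate block and without any 1 library (0 to 0). It stayed 1 at minimum coverages of 100 and 3 reads and in Fisher's exact test on summed counts. The labels name no batch shared by same-numbered libraries. Deviations of such libraries from their genotype means correlated at -0.0346 over 105 cytosines and 0.241 over 48 windows. With 2 libraries a genotype these values cannot show whether a batch is shared. For coverage windows the count of 0 became 1 with the replicate block and was 0 to 8 when 1 library was left out. The adjacent minus isolated difference of -0.00252 percentage points was -0.00491 to 0.00224 with 1 library left out and -0.0178 with cytosines at 10% or less. Stretch cytosines numbered 13 in 4 stretches at 8% or more, against 59, and thin-segment cytosines 128 under 500 reads, against 56. Stretches at 10 reads or more, chosen after seeing the data, held 86 cytosines. The background differences kept their sign under the alternatives run. The cause of these changes was not tested. With 2 libraries a genotype, the exact permutation and sign-flip tests over libraries could not pass 0.05.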
